A study of Mus musculus with 6 samples.

Results

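Genes of fatty acid oxidation and triacylglycerol handling were compared between duodenal and cecal tumors of the mouse intestine. The group held 38 genes chosen by name for their place in mitochondrial oxidation, peroxisomal oxidation, or the making, storage and breakdown of triacylglycerol. The choice was made with earlier results of these data known. Of the 38 genes, 36 had a probe set (the set of short oligonucleotides that reads a transcript on the array) whose annotation named that gene alone, out of 12393 genes so named. Acsl1 and Acsl3, which encode long-chain acyl-CoA synthetases, were not analysed here. Lipe, the hormone-sensitive lipase, was too dim to be tested, with intensities of 46.4 to 82.2 over the 6 arrays, and 35 members were tested.

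Tumor RNA from 6 mice was hybridised to 1 Affymetrix array per mouse, with 3 duodenal tumors and 3 cecal tumors. All mice carried the Apc1638N allele of the tumor suppressor Apc and were deficient in Rb1, the retinoblastoma gene; the labels give neither the tissue in which Rb1 was deleted nor an age, strain background or treatment. Tissue labelled duodenal could also come from the pylorus, the muscular outlet of the stomach. Neither normal tissue nor tumors with intact Rb1 were compared. The study set the tumors of these sites against each other, which cannot separate what is particular to the tumors from how duodenum and cecum differ. In such bulk RNA, fewer cells of a type and less RNA per cell cannot be told apart.

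The arrays' median intensities were 164.6 to 181.8. Pairs of arrays correlated at 0.95 to 0.971 when both came from one site and at 0.866 to 0.911 otherwise. The 8 epithelial markers summed to 57624 to 65279 in the duodenal and 69930 to 73592 in the cecal tumors, and 2 of them, Vil1 and Cldn7, passed the test as higher in cecal tumors. With the replicate number as a block Krt20 passed too (log2 fold -0.78, limma adjusted p = 0.0067, against 0.0767 without the block). All 8 markers of the gastric surface and pylorus were higher in duodenal tumors, where they summed to 64796 to 93395 against 1228 to 2073 in cecal tumors. Of 5 adipocyte markers on the array, 4 lay below the level needed for testing on every array, Adipoq among them at 2.6 to 15.5. All 5 pancreatic acinar markers on the array were below it too. Duodenal tumor 2 and cecal tumor 2 lacked Y-linked transcripts and the other 4 tumors had them.

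As background, cells burn long-chain fatty acids after coupling them to coenzyme A and passing them into mitochondria as carnitine esters, where a repeating cycle of reactions shortens the chain. Peroxisomes shorten chains that mitochondria handle poorly. Absorptive cells of the small intestine rebuild absorbed fat into triacylglycerol, hold part of it in lipid droplets and export the rest in chylomicrons, and the nuclear receptors PPAR alpha, PPAR delta and HNF4 alpha are known to switch on many genes of this pathway there.

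Members of the group differed between the sites in both directions. Of the 35 tested members, 6 passed the test (17.1%), where 10.4% of all 8125 tested genes passed. Because the members were chosen with earlier results of these data known, these shares do not test the pathway for an excess. Slc25a20, Acadl, Dgat2 and Plin2 were higher in cecal tumors, a direction in which 5.7% of all genes passed. Pdk4 and Acot1 were higher in duodenal tumors, a direction in which 4.73% of all genes passed. The 4 became 2 without cecal tumor 1 or cecal tumor 2 and 0 on the 4 arrays with Y-linked transcripts alone. Over all genes the 463 calls in that direction fell too, to 251, 250 and 221 in these fits. The 2 became 1 without duodenal tumor 1 or 3 or cecal tumor 2 or 3. Over all genes the 384 calls in that direction fell to 227, 222, 227 and 342 in these fits. The test was limma on log2(intensity + 16), with Benjamini-Hochberg adjustment over 13866 probe sets and a threshold of 0.05. Each log2 fold below is duodenal minus cecal on that scale, so that a negative value is higher in cecal tumors. The median log2 fold of the tested members was -0.05 and that of all genes 0.05, and the median size without regard to sign was 0.27 against 0.21. The groups did not overlap for 10 members (28.6%), against 31.2% of all genes.

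**Figure D1:**
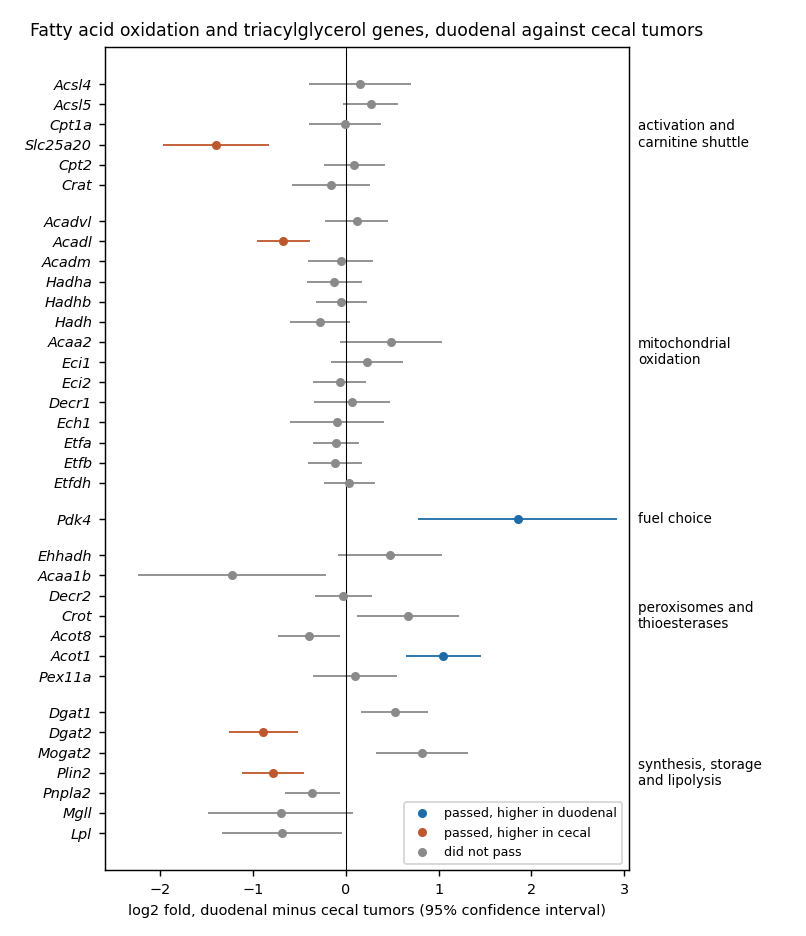
Log2 fold of the 35 tested members, duodenal minus cecal tumors, by step of the pathway; points are limma estimates and bars their 95% confidence intervals (3 tumors per site). Most genes of mitochondrial oxidation lie near 0, whereas Slc25a20, Acadl, Dgat2 and Plin2 lie to the left and Pdk4 and Acot1 to the right.

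At the entry into mitochondria, 1 of 6 tested members differed. Slc25a20 encodes the carnitine-acylcarnitine translocase, which carries acylcarnitines across the inner mitochondrial membrane. Its intensity was 901.5, 650.6 and 587.7 in duodenal tumors 1, 2 and 3 and 2358.1, 2162 and 1292.5 in the cecal tumors. All cecal tumors lay above all duodenal tumors, and cecal tumor 3 was the lowest of its site. Slc25a20 was 2.64-fold higher in cecal tumors (log2 fold -1.40 ± 0.25 SE, limma adjusted p = 0.0118). A second probe set of the gene read 401.5, 466.8 and 503.3 in the duodenal and 1329, 1182.8 and 1012.3 in the cecal tumors and passed too (log2 fold -1.33, limma adjusted p = 0.00151). The first probe set lost its call without cecal tumor 1 (limma adjusted p = 0.0528) and without cecal tumor 2 (limma adjusted p = 0.0507).

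The enzymes on either side of the translocase did not pass. Cpt1a, which makes the acylcarnitines at the outer membrane and is the regulated step of the pathway, read 2181.7, 1592.2 and 1962.3 in the duodenal and 1939.4, 2259.6 and 1584.3 in the cecal tumors. The sites overlapped, and the log2 fold of -0.01 had a 95% confidence interval of -0.40 to 0.38. Cpt2, which turns acylcarnitines back into acyl-CoA inside the mitochondrion, had a log2 fold of 0.09 (interval -0.24 to 0.43). The log2 ratio of Slc25a20 to Cpt1a within an array was 1.39 higher in cecal tumors, and that of Slc25a20 to Cpt2 1.49 higher. Both ratios had no overlap between the sites, with an exact two-sided permutation p of 0.1 each, the smallest that 3 against 3 tumors can give. These ratios belong to 6 that were chosen after the values were seen, and the adjusted p over the 6 was 0.1 for each. Crat, the carnitine acetyltransferase, had a log2 fold of -0.16 (limma adjusted p = 0.659). Among the acyl-CoA synthetases, which couple fatty acids to coenzyme A, Acsl5 had a log2 fold of 0.27 (limma adjusted p = 0.261) and Acsl4 one of 0.15 (limma adjusted p = 0.761).

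Of the 14 members that carry out or serve the mitochondrial cycle, 1 differed. Acadl encodes the long-chain acyl-CoA dehydrogenase, one of the enzymes of the first oxidation in each round. It read 2568.1, 2231.1 and 2408.2 in the duodenal and 4423.9, 3481 and 3662.3 in the cecal tumors. The 2 sites did not overlap, with cecal tumor 1 the highest. Acadl was 1.6-fold higher in cecal tumors (log2 fold -0.67 ± 0.13 SE, limma adjusted p = 0.014). A second Acadl probe set was below the testing level on every array, at 14.5 to 36.1, and with the mean of the pair the call was lost (log2 fold -0.30, limma adjusted p = 0.267).

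The other acyl-CoA dehydrogenases among the members did not pass. Acadvl, for very long chains, had means of 1853 ± 273.7 (SD, n = 3) in duodenal and 1702 ± 179.4 in cecal tumors, with a log2 fold of 0.12 (95% confidence interval -0.23 to 0.46). Acadm, for medium chains, had means of 1980.2 ± 320.9 and 2049 ± 232.4, with a log2 fold of -0.06 (interval -0.41 to 0.30). The log2 ratio of Acadl to Acadm was 0.62 higher in cecal tumors and that of Acadl to Acadvl 0.79 higher, both without overlap and each with an exact permutation p of 0.1.

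The enzymes of the later reactions did not pass. Hadha and Hadhb, the subunits of the mitochondrial trifunctional protein, had log2 folds of -0.12 (95% confidence interval -0.42 to 0.17) and -0.05 (interval -0.33 to 0.23). Hadh, the hydroxyacyl-CoA dehydrogenase for shorter chains, was at 3834.5 to 5524.2 in the duodenal and 5266.6 to 5650.5 in the cecal tumors (log2 fold -0.28, limma adjusted p = 0.281). Acaa2, the thiolase that closes the cycle, had a log2 fold of 0.49, with overlapping sites (limma adjusted p = 0.274). The auxiliary enzymes for unsaturated chains, Eci1, Eci2, Decr1 and Ech1, had log2 folds of -0.10 to 0.23. Etfa, Etfb and Etfdh, which pass electrons from the dehydrogenases to the respiratory chain, had log2 folds of -0.11 to 0.04. Among the 14 members, 10 had a log2 fold between -0.2 and 0.2 and the median size was 0.11, where the median size over all genes was 0.21. These 14 read 521.3 and above on every array, over the arrays' median intensities of 164.6 to 181.8. All genes include much dimmer ones, so the median sizes are not like for like. The confidence intervals of the 13 that did not pass reached from -0.61 to 1.04, so differences of that size remain possible for some of them.

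Pdk4, a kinase that switches off pyruvate dehydrogenase and so spares glucose while fatty acids are burned, was higher in duodenal tumors. It read 200.6, 518.2 and 271.2 in the duodenal and 127.7, 92.8 and 29.1 in the cecal tumors. The sites did not overlap, although duodenal tumor 2 was far above and cecal tumor 3 far below the rest of its site. Cecal tumors 2 and 3 lay below their arrays' testing levels of 100.06 and 96.1, so Pdk4 was measured above that level in 1 of the 3 cecal tumors. On the intensities as deposited Pdk4 was 3.61-fold higher in duodenal tumors (log2 fold 1.85 ± 0.47 SE, limma adjusted p = 0.0447), a size that rests on those dim readings. The call was lost without any single array (limma adjusted p = 0.0511 to 0.105), and the log2 fold then ran from 1.36 without cecal tumor 3 to 2.20 without cecal tumor 1. It was also lost with an offset of 1 (0.0535), no filter on dim probe sets (0.0736), quantile normalization (0.0545), median centring (0.0508) and no intensity trend (0.0528).

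**Figure D2:**
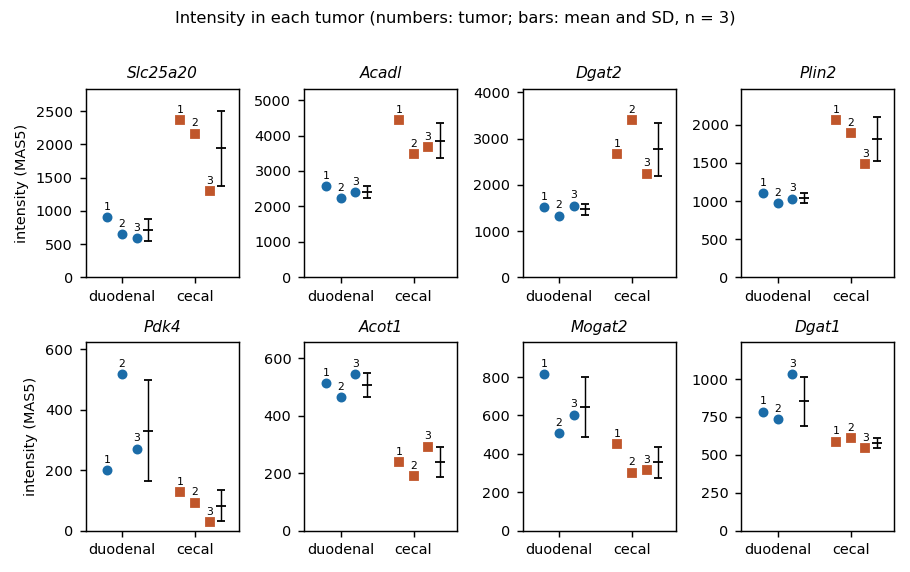
Intensity (MAS5, linear axis from 0) of 8 members in each tumor; circles are duodenal and squares cecal tumors, numbers name the tumor, and black bars give the mean and SD (n = 3). Slc25a20, Acadl, Dgat2 and Plin2 are higher in every cecal tumor; Pdk4, Acot1, Mogat2 and Dgat1 are higher in every duodenal tumor, with Mogat2 and Dgat1 not past the threshold.

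In the peroxisomal group, which also held the cytosolic thioesterase Acot1, 1 of 7 members passed. Acot1 splits long-chain acyl-CoA back into a free fatty acid and coenzyme A, and in mouse liver it is known as a gene that PPAR alpha induces. It read 513.7, 464.2 and 546.4 in the duodenal and 238.3, 189.7 and 293.4 in the cecal tumors. The sites were well apart, and each site's tumors lay close together. Acot1 was 2.07-fold higher in duodenal tumors (log2 fold 1.05 ± 0.18 SE, limma adjusted p = 0.00898). Acot1 belongs to a cluster of near-identical thioesterase genes, and whether its probe set also reads a relative was not determined here. Probe sets of its relatives Acot2 and Acot3 were below the testing level on every array, at 25.4 to 64.4 and 9.6 to 43.7. That of Acot4 was above it in cecal tumor 1 alone, at 120.9, and read 24 to 71.7 in the other 5 tumors.

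The other members of this group did not pass. Acaa1b, a peroxisomal thiolase, read 213.4, 152.2 and 541.4 in the duodenal and 848.6, 744.6 and 404.2 in the cecal tumors. Its sites overlapped through duodenal tumor 3 and cecal tumor 3 (log2 fold -1.23 ± 0.44 SE, limma adjusted p = 0.136). Without duodenal tumor 3 it passed (log2 fold -1.73, limma adjusted p = 0.025). Leaving out a tumor that made the overlap favors a pass, and Acaa1b passed in 2 of 19 alternative fits. Crot, which makes medium-chain acylcarnitines for export from peroxisomes, read 1494.3, 910.5 and 1619 in the duodenal and 1033.4, 715 and 729.8 in the cecal tumors. Duodenal tumor 2 lay among the cecal values (log2 fold 0.67 ± 0.24 SE, limma adjusted p = 0.137). Without that tumor, which made the overlap, Crot passed (log2 fold 0.92, limma adjusted p = 0.0255). It passed in 2 of 19 alternative fits. Acot8, a thioesterase of the peroxisome, did not overlap between the sites, with 524.9 to 683.6 in the duodenal and 748.3 to 859.4 in the cecal tumors, but did not pass (log2 fold -0.40, limma adjusted p = 0.143). Ehhadh, the bifunctional enzyme, had a log2 fold of 0.48 (limma adjusted p = 0.288). Decr2, a dienoyl-CoA reductase, and Pex11a, a protein of peroxisome division, had log2 folds of -0.03 and 0.10 (limma adjusted p = 0.929 and 0.817).

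Among the members that make and store triacylglycerol, Dgat2 and Plin2 were higher in cecal tumors and Dgat1 and Mogat2 did not pass. Dgat2, which adds the last fatty acid to diacylglycerol, read 1518, 1336.8 and 1548.6 in the duodenal and 2662.8, 3390 and 2242.7 in the cecal tumors. The sites did not overlap, and cecal tumor 2 was the highest. Dgat2 was 1.85-fold higher in cecal tumors (log2 fold -0.89 ± 0.16 SE, limma adjusted p = 0.0128). Its second probe set read 752.1, 704.6 and 732.3 in the duodenal and 1470.9, 2042.3 and 1379.5 in the cecal tumors and passed as well (log2 fold -1.12, limma adjusted p = 0.00491). Plin2, a coat protein of lipid droplets, read 1103.6, 971 and 1032.6 in the duodenal and 2055.1, 1889.5 and 1487.8 in the cecal tumors. Its sites did not overlap, and cecal tumor 3 was the lowest of the cecal tumors. Plin2 was 1.72-fold higher in cecal tumors (log2 fold -0.79 ± 0.15 SE, limma adjusted p = 0.014), a call lost without cecal tumor 1 (0.0534) and without cecal tumor 2 (0.064).

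Dgat1 catalyses the same last step as Dgat2 through an unrelated protein, and read 785.7, 736.5 and 1034.5 in the duodenal and 588.2, 610.1 and 544.1 in the cecal tumors. All duodenal values were above all cecal values, and the difference did not pass (log2 fold 0.53 ± 0.16 SE, limma adjusted p = 0.0776). Mogat2, the monoacylglycerol acyltransferase of absorptive cells, read 816.8, 509.7 and 604.8 in the duodenal and 449.7, 302.9 and 317.6 in the cecal tumors. It too had no overlap, and it missed the threshold (log2 fold 0.82 ± 0.22 SE, limma adjusted p = 0.0524) but passed with the replicate number as a block (limma adjusted p = 0.0101). It also passed without duodenal tumor 2 (limma adjusted p = 0.0383), without cecal tumor 1 (0.04997) and with array weights (0.00932). The log2 ratio of Dgat2 to Dgat1 was 0.79 ± 0.19 (SD, n = 3) in duodenal and 2.20 ± 0.22 in cecal tumors, a shift of 1.42. The ratio of Dgat2 to Mogat2 shifted by 1.71. Because Dgat2 was higher in every cecal tumor and Dgat1 and Mogat2 in every duodenal tumor, neither ratio could overlap between the sites. The exact permutation p of 0.1 for both was thus fixed and adds nothing to the values of the single genes. Ratios of probe sets show an unequal change and do not compare the levels of the genes.

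None of the 3 lipases tested among the members passed. Pnpla2, which starts the breakdown of stored triacylglycerol, had no overlap, with 657.3 to 821.5 in the duodenal and 921.5 to 986.6 in the cecal tumors (log2 fold -0.36 ± 0.13 SE, limma adjusted p = 0.134). Lpl, the lipoprotein lipase of vessel walls, read 581.6, 427.2 and 1048.4 in the duodenal and 1036.6, 1073.7 and 1011 in the cecal tumors. Duodenal tumor 3 reached the cecal level (log2 fold -0.69 ± 0.28 SE, limma adjusted p = 0.189). Without that tumor, which made the overlap, Lpl passed (log2 fold -1.04, limma adjusted p = 0.0176). This was 1 of 19 alternative fits, and Lpl passed in no other. Mgll, which splits the last fatty acid from monoacylglycerol, read 419.1, 208.9 and 528 in the duodenal and 699.4, 726.5 and 415.1 in the cecal tumors, with overlap (log2 fold -0.70, limma adjusted p = 0.266). The 8 macrophage and leukocyte markers summed to 6928 to 7525 in the duodenal and 8122 to 10081 in the cecal tumors, and 0 of the 6 that were tested passed, with limma adjusted p of 0.134 and above. Much of the sum was Lyz2, at 3609 to 4303.8 in the duodenal and 4541.2 to 6103.6 in the cecal tumors. Ptprc, Cd14 and the dim Itgam were also higher in every cecal tumor. Cd68 was higher in every duodenal tumor (277.5 to 297.6 against 257.4 to 266.6), and Csf1r, Adgre1 and Cd3e overlapped. Of the muscle and endothelial markers, 0 of 6 and 0 of 5 tested passed. Their part in the levels of Plin2 and the lipases was not tested. Of the adipocyte markers 1 was bright enough to be tested, Fabp4, which endothelial cells and macrophages also express, and it did not pass (log2 fold 0.48, limma adjusted p = 0.293).

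Promoters of the members that passed are shown because PPAR and HNF4 receptors bind a direct repeat of the half-site AGGTCA with 1 base between the copies. The RefSeq windows run from 250 bases before to 50 bases after the gene start in build GRCm38.p6 and are written 5′ to 3′ on the gene's strand. Capitals mark a match to the repeat on either strand with at most 2 mismatches in its 12 scored positions. Of the 6 members that passed, 5 had a window, and Dgat2 had none.
Slc25a20 (chr9:108661886-108662185, plus strand): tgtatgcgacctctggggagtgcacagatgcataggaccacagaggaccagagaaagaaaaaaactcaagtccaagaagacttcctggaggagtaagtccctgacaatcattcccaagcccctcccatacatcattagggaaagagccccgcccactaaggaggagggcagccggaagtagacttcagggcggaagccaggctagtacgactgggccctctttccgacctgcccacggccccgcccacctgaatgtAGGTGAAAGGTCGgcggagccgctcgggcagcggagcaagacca
Plin2 (chr4:86670010-86670309, minus strand): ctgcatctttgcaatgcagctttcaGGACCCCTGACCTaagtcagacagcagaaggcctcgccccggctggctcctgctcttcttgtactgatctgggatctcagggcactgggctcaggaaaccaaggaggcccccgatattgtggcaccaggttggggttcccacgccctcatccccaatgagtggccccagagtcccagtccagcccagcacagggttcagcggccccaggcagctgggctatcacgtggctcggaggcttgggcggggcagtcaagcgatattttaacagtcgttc
Acadl (chr1:66863260-66863559, minus strand): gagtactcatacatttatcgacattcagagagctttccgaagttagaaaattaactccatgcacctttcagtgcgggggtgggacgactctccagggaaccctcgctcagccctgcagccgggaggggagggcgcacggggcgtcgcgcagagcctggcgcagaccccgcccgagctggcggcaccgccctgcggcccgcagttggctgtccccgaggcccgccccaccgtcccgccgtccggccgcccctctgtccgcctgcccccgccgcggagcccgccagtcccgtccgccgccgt
Pdk4 (chr6:5496229-5496528, minus strand): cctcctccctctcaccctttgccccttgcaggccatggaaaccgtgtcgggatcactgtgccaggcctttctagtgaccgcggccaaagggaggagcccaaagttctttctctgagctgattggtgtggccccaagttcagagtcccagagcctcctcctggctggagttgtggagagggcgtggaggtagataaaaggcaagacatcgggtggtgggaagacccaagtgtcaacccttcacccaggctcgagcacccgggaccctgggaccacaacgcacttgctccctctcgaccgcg
Acot1 (chr12:84009252-84009551, plus strand): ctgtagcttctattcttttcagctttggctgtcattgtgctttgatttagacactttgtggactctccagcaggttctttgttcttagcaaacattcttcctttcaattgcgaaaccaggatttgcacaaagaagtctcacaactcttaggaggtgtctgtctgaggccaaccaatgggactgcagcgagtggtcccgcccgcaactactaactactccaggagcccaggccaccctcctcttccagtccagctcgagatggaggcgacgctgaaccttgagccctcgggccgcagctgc
The Slc25a20 window held a match on the gene's strand that begins at position 7 after the start, AGGTGAAAGGTCG, and the Plin2 window one on the opposite strand from position -225, GGACCCCTGACCT. Both genes were higher in cecal tumors, as were Acadl and Dgat2. The windows of Acadl, Pdk4 and Acot1 held no match, and for Dgat2 there was no window to read. Of the 31 members with a window 3 had a match (9.68%), the other being Etfa, which did not pass. Over all 32851 windows 3.86% held one. Those windows were not limited to genes on the array, and members were counted as genes, so these shares are not like for like. The windows differed in CpG content too, with 34 CpG in that of Acadl, 13 in Slc25a20, 12 in Pdk4, 10 in Plin2 and 9 in Acot1, against a median of 7 over all windows. A match describes the letters only, and binding was not measured.

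Most members were lowest in the same duodenal tumor. Duodenal tumor 2 was the lowest duodenal tumor for 31 of the 35 members (88.6%), where it was the lowest for 37.8% of all genes. The exceptions were Acsl4, Slc25a20, Pdk4 and Decr2. Measured against the mean of the other duodenal tumors, the median difference of the members in tumor 2 was -0.32 on the log2 scale, against -0.00393 over all genes. Duodenal tumor 3 was the highest for 23 members (65.7%; 34.5% of all genes). In cecal tumors 1, 2 and 3 the medians were 0.0887, 0.00445 and -0.131. The same tumor 2 had 4412 as the sum of 8 muscle markers, where the other duodenal tumors had 7392 and 7014. Of the 5 liver markers on the array, Alb, serum albumin, read 54.9, 2168.4 and 210.5 in duodenal tumors 1, 2 and 3, Ttr read 1837.8, 1940.8 and 3450.5, Apoh read 51.3, 105.2 and 65.6, and Fgb and Ahsg were at 1.6 to 4.9. Tumor 2 was the highest of these tumors for Alb and Apoh, and tumor 3 for Ttr. Its epithelial sum of 58207 lay between those of the other duodenal tumors, 57624 and 65279. Duodenal tumor 2 also lacked Y-linked transcripts, as cecal tumor 2 did, and the part of these features in the members' levels was not tested.

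**Figure D3:**
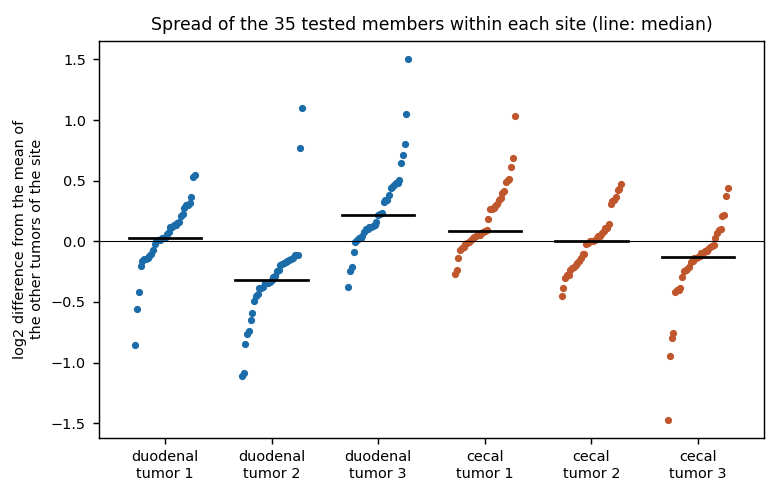
Log2 difference of each of the 35 tested members in 1 tumor from the mean of the other tumors of the same site; black lines are medians. Duodenal tumor 2 lies below 0 for 33 of 35 members, with a median of -0.32.

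Other genes of the pathway were read in the same fit from 5 lists of 154 genes, of which 120 were on the array and 99 were tested. In these lists 7 genes were higher in duodenal and 10 in cecal tumors, which is 17.2% of those tested, against 10.4% of all genes. The lists too were chosen with earlier results of these data known, so these shares do not test for an excess. Without cecal tumor 2 the 10 became 4, without cecal tumor 1 or duodenal tumor 1 they became 5, and without duodenal tumor 2 or 3 they became 6. On the 4 arrays with Y-linked transcripts alone they became 3. Over all genes the 463 cecal-higher calls fell as well. They became 250 and 251 without cecal tumors 2 and 1, and 327, 385 and 359 without duodenal tumors 1, 2 and 3. On the arrays with Y-linked transcripts alone they became 221. The median log2 fold of the 99 was 0.06, close to the 0.05 of all genes.

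Among 21 further genes of mitochondrial oxidation, 2 were higher in each direction. Acads, the dehydrogenase for short chains, read 456.5, 482.2 and 572.7 in the duodenal and 780.2, 961 and 978.4 in the cecal tumors. Every cecal tumor exceeded every duodenal tumor (1.77-fold higher, log2 fold -0.83 ± 0.15 SE, limma adjusted p = 0.0122). The call was lost without duodenal tumor 1 (0.0508) and without cecal tumor 2 (0.0579). The thioesterase Acot9 was 1.46-fold higher in cecal tumors (limma adjusted p = 0.0423), and no longer passed when any single array but cecal tumor 3 was left out (0.0761 to 0.157), with no filter on dim probe sets (0.0524) or with no intensity trend (0.0561). Acsm3, a medium-chain acyl-CoA synthetase, read 719.9, 475.3 and 1149.6 in the duodenal and 179.6, 183.9 and 197.1 in the cecal tumors. It was 3.7-fold higher in duodenal tumors (limma adjusted p = 0.00542). Acss1, a mitochondrial acetyl-CoA synthetase, was 2.24-fold higher in duodenal tumors (limma adjusted p = 0.00695), which did not pass as the mean over its probe sets (log2 fold 0.51 against 1.16, limma adjusted p = 0.109). The gastric markers named above were also higher in duodenal tumors, and their part in these levels was not tested.

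Of 32 further genes listed with peroxisomal oxidation, a list that also held the cytosolic thioesterase Acot12, 2 were higher in each direction. Ephx2, the soluble epoxide hydrolase, read 751.8, 313.4 and 836.1 in the duodenal and 132.8, 134.8 and 141.1 in the cecal tumors, and was 3.94-fold higher in duodenal tumors (limma adjusted p = 0.00851). Hsd17b4, the D-bifunctional enzyme of peroxisomal oxidation, was 1.64-fold higher there (limma adjusted p = 0.0102), a call lost without cecal tumor 2 (0.0505) and with its dimmest tested probe set (0.0749). Hao2, a peroxisomal hydroxyacid oxidase, read 5.6, 4.5 and 1.1 in the duodenal and 1355.7, 1065.6 and 1022.7 in the cecal tumors. As it was below the testing level in all duodenal tumors, it is given as at least 9.93-fold higher in cecal tumors (limma adjusted p = 2.53e-06). Such a bound sets the bright group against the higher of each dim array's testing level (its 40th percentile) and its own value, and the direction of a gene dim in a whole site largely follows from the filter. Acot12, a thioesterase for acetyl-CoA, read 96.9, 83 and 109.6 in the duodenal and 256.1, 297.4 and 154.2 in the cecal tumors, and was above the testing level in 1 of the 3 duodenal tumors. On these intensities it was 2.18-fold higher in cecal tumors (limma adjusted p = 0.0268), and no longer passed when any single array but cecal tumor 3 was left out (0.054 to 0.104) or with the mean of its probe sets (0.068). Cat, the peroxisomal catalase, did not pass (log2 fold -0.69, limma adjusted p = 0.0662).

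Of 22 further genes of synthesis, storage and lipolysis, 3 were higher in cecal and 1 in duodenal tumors. Mogat1, like Mogat2 a monoacylglycerol acyltransferase, read 574.8, 195 and 389.7 in the duodenal and 29.2, 29.3 and 11 in the cecal tumors, and the duodenal level was at least 3.3-fold higher (limma adjusted p = 0.0018). Lpin2, which makes the diacylglycerol that Dgat enzymes use, was 1.85-fold higher in cecal tumors (limma adjusted p = 0.0122). Hilpda, a hypoxia-induced protein of lipid droplets that inhibits Pnpla2, read 242.5, 165.7 and 165.4 in the duodenal and 408.4, 453.1 and 297.4 in the cecal tumors (1.94-fold higher in cecal tumors, limma adjusted p = 0.0275). Its call was lost without duodenal tumor 2 or 3 or cecal tumor 1 or 2 (0.0698 to 0.109). Lipg, an endothelial lipase, had a cecal level at least 1.74-fold higher (limma adjusted p = 0.00197).

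Among 16 tested genes of fatty acid uptake and of transcriptional control, 2 were higher in cecal and 1 in duodenal tumors. Slc27a2, a fatty acid transport protein with very long-chain acyl-CoA synthetase activity, read 11.8, 3.4 and 26.1 in the duodenal and 264.7, 172.4 and 194.1 in the cecal tumors, and the cecal level was at least 1.92-fold higher (limma adjusted p = 0.00121). Fabp5, a fatty acid binding protein, read 5759.8, 3775.7 and 5687.8 in the duodenal and 1195, 1083 and 875.9 in the cecal tumors, 4.72-fold higher in duodenal tumors (limma adjusted p = 0.000397). Hnf4a, which encodes the receptor HNF4 alpha, was 1.41-fold higher in cecal tumors (limma adjusted p = 0.0266). The call was lost when any single array was left out (0.0535 to 0.0974), with no intensity trend (0.0573) and on the arrays with Y-linked transcripts alone (0.12). Hnf4a passed with the mean of its probe sets (log2 fold -0.70, limma adjusted p = 0.00761) and with its dimmest tested probe set (log2 fold -0.85, limma adjusted p = 0.00741). The receptor genes Ppara and Pparg did not pass, with log2 folds of 0.03 and -0.44 (limma adjusted p = 0.955 and 0.185), nor did their partner Rxra (log2 fold -0.48, limma adjusted p = 0.0695). Ppard was below the testing level on every array, at 2.6 to 3.6.

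Of 8 genes of pyruvate dehydrogenase and its control, 1 was higher at each site. Pdha1, the catalytic subunit that the Pdk kinases phosphorylate, was 1.62-fold higher in duodenal tumors (limma adjusted p = 0.0447), as Pdk4 was. Pdk3, another of these kinases, read 206.8, 287 and 254.5 in the duodenal and 548.6, 458.9 and 357.4 in the cecal tumors, 1.76-fold higher in cecal tumors (limma adjusted p = 0.0358), so that both kinases passed in opposite directions. The calls of Pdha1 and Pdk3 were lost without duodenal tumor 1 or 3 or cecal tumor 1 or 2 (0.0854 to 0.152), and also when dim probe sets were kept in the test (0.0668 and 0.0579). That of Pdha1 was also lost with median centring (0.0612), no intensity trend (0.0652) and its dimmest tested probe set (0.0757). Pdk1 did not pass (log2 fold -0.78, limma adjusted p = 0.543), with 627.1, 478 and 134.1 in the duodenal and 1307, 658.2 and 252.4 in the cecal tumors, and passed with the replicate number as a block (limma adjusted p = 0.0239).

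**Figure D4:**
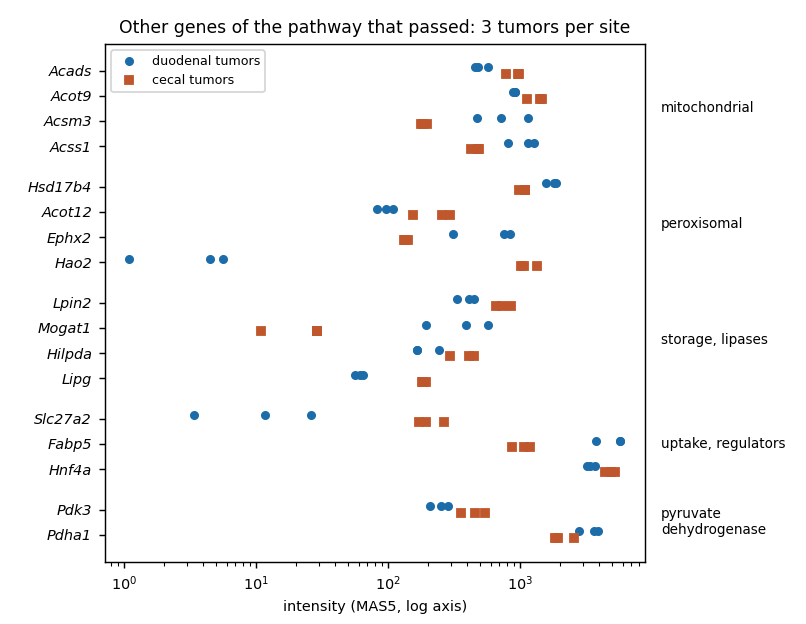
Intensity (log axis) in each tumor of the 17 other pathway genes that passed; circles are duodenal and squares cecal tumors, 3 per site. Hao2, Slc27a2 and Lipg are dim in every duodenal tumor and Mogat1 is dim in every cecal tumor.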

How the data were processed

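The authors' deposited values were linear probe set intensities made with MAS5, per the submitters' processing notes (version and scaling target: not given in the sources used here). Each array's deposited intensities averaged 499.11 to 499.87 between the 2nd and 98th percentiles, and no further normalization was applied. Of 22690 probe sets, 20380 named exactly 1 gene in the platform annotation, 691 named several, 1555 had no name here and 64 controls were left out. Symbols were checked against RefSeq (GRCm38.p6) by gene id for 20351 probe sets. Groups and replicate numbers came from the sample titles, and the tumors came from different mice per the labels.

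A probe set was tested when at least 3 of 6 arrays put it above their 40th percentile (92.4 to 100.6). Tests used limma 3.58.1 in R 4.3.3 on log2(intensity + 16), which understates changes of dim genes, with an intensity trend, two-sided. A gene was read by its brightest probe set; 11 members had several tested probe sets, and of these 16 others 3 had the opposite sign and 0 differed in call. Named were all members, up to 4 genes past the threshold per other list, and markers; others were named after their values were seen. The members and lists were chosen with earlier results of these data known. Same-numbered tumors deviated together from their group means (r = 0.274, 0.299 and 0.203), and the others at r = -0.2 to -0.0261. Because each site was centred on its own mean, positive values for same-numbered tumors force negative ones among the others. The negative values are thus not a separate result. The sample titles do not say that equal numbers mark a pair. The main tests were therefore unpaired, and the replicate number was a block in an alternative fit only. Alternatives were the offset, filter, normalization, variance model, probe set choice, replicate block, arrays with Y-linked transcripts alone and leaving out each array, with the tested set kept. On simulated data with independent noise the fit called 57% of the probe sets changed 2-fold and 91% of those changed 4-fold. Of its calls there 3.9% were false. A gene that did not pass may therefore still differ. The simulation changed a smaller share of probe sets than the share of genes called in the data, so its percentages need not hold for the real fit. Figures used Python 3.11.15 and matplotlib 3.10.9.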

Additional observations from a re-analysis of the deposited data

How the results depend on the processing

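Of 662 refits of single members over 19 alternatives, 632 kept their side of the threshold, 21 lost a call and 9 gained one, and no called fold changed sign. Acot1 passed in all 19. The 2 members higher in duodenal tumors became 1 with an offset of 1, no filter, a filter on all 6 arrays, the 60th percentile, quantile normalization, median centring, no intensity trend and the arrays with Y-linked transcripts alone, and 4 with array weights; leaving out single arrays gave 1 to 3. In the filters on all 6 arrays and at the 60th percentile Pdk4 was not tested. The 4 members higher in cecal tumors became 0 with the 4 arrays with Y-linked transcripts alone, which leave 2 tumors per site, and 2 to 6 without single arrays. Other pathway genes higher in cecal tumors, 10 in all, became 6 with the filter on all 6 arrays, 3 with the arrays with Y-linked transcripts and 4 to 10 without single arrays. Over all genes the 463 cecal-higher calls became 336, 221 and 250 to 434 in these fits. The 384 duodenal-higher calls became 195 to 412 without single arrays. With the replicate number as a block, 3 members were higher in duodenal and 4 in cecal tumors, and 9 and 11 other pathway genes; among members only the call of Mogat2 changed (log2 fold 0.82, limma adjusted p = 0.0101). The cause of these changes was not tested. The 6 arrays limit precision, and probe sets dim on every array of a site have bounds only.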

Other observations

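A second probe set of Cpt1a read 382.1, 61.2 and 440.9 in duodenal tumors 1, 2 and 3 and 604.9, 48.3 and 492.7 in cecal tumors 1, 2 and 3, so that tumor 2 was low at both sites, while the brightest Cpt1a probe set read 1592.2 and 2259.6 in those tumors and 1584.3 to 2181.7 in the other 4, with cecal tumor 2 the highest of all 6. Both tumors lacked Y-linked transcripts, and they share the replicate number 2, so the lack of Y-linked transcripts and the number cannot be told apart. Over all tested probe sets, 13 were at least 2-fold lower in both of these tumors than in each of the other 4, and 9 of them were not annotated to the Y chromosome. Of the 9, 3 have no gene or chromosome here, and they read 1.3 to 12 in the tumors numbered 2, close to the 1.2 to 17.8 of the Y-linked probe sets. The other 6 were probe sets of Cpt1a, Lipa and Stx3, all on chromosome 19, of Pla2g2a on chromosome 4 and of Reg3b, with 2 probe sets, on chromosome 6. The Lipa probe set, for the lysosomal acid lipase, read 206.8, 50.3 and 237.4 in the duodenal and 192.7, 40.6 and 206.6 in the cecal tumors, whereas the brightest Lipa probe set read 818.4 and 1072.7 in the tumors numbered 2 and 898.2 to 1191.4 in the other 4, with duodenal tumor 2 the lowest of all 6. Pla2g2a, a secreted phospholipase, read 5761.7 and 3003.3 in the tumors numbered 2 and 13248 to 18469 in the other 4. These probe sets were named after their values were seen.

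Fabp2, the intestinal fatty acid binding protein, did not pass (log2 fold -1.71, limma adjusted p = 0.0811) and read 1647, 666.2 and 1671.8 in the duodenal and 6377.7, 5765.8 and 1804.5 in the cecal tumors, with cecal tumor 3 near the duodenal level. Cecal tumor 3 was also the lowest cecal tumor for 18 of the 35 members (51.4%), where it was the lowest for 32.3% of all genes.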
